A study of Rattus norvegicus with 16 samples.

Results

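Left ventricle apex from rats fed 3000 ppm phenformin for 14 days was compared with the same tissue from rats fed it for 3 days. The comparison holds 8 of the series' 16 arrays, 4 whose titles name phenformin hearts at day 14 and 4 at day 3, and it was made over 22093 genes. The other 8 arrays, from rats on untreated food at the same days, show what the same interval did without the drug. All animals were male RccHan Wistar rats that entered the experiment at 7 to 8 weeks of age, housed in small groups and assigned at random to their diets. The treatment protocol names 5 animals per group and 4 arrays per group were analysed here, called biological replicates by their titles. Day of diet, age and day of killing moved together, so that within the phenformin-fed rats they cannot be told apart. The time of day of killing and the order in which arrays were processed are not given in the sources used here.

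Phenformin is a biguanide, a class of glucose-lowering drugs that inhibit complex I of the mitochondrial respiratory chain and, by lowering cellular energy charge, activate AMP-activated protein kinase. The heart draws most of its energy from the oxidation of fatty acids and switches between fatty acids and glucose under the control of nuclear receptors such as PPAR alpha. A piece of ventricle also holds endothelial cells, fibroblasts, pericytes, blood cells and a small number of dividing cells besides its cardiomyocytes. In such bulk tissue, fewer cells of a type and less RNA per cell cannot be told apart.

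Each level is a deposited array intensity on the log2 scale. Each change is day 14 minus day 3 on that scale, and its standard error (SE) comes from limma. The 8 phenformin arrays were closely alike, with correlations between 0.991 and 0.995 over the genes tested. Array medians over all probe sets lay between 4.99 and 5.13. Correlations between arrays of different days had a median of 0.993, against 0.994 within day 3 and 0.993 within day 14. The cardiomyocyte markers fixed for the tissue were bright in every array, and their list mean differed by 0.01 between the phenformin days. Some arrays stood apart for whole groups of genes: day 14 replicate 4 was lowest of its group for 11 of 12 endothelial and 31 of 41 cell cycle genes, day 14 replicate 3 was highest for 25 of 26 interferon-stimulated genes, and day 3 replicate 4 was lowest for 20 of 27 PPAR alpha targets.

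Between 3 and 14 days of phenformin, 1 gene rose past the threshold of an adjusted p under 0.05 in limma, which is 0.00453% of those tested, and 0 fell (0%). The gene was Pir, which encodes pirin, an iron-binding nuclear protein. At an unadjusted p under 0.05, 822 genes were higher at day 14 (3.72%) and 900 were lower (4.07%), 1722 in all where 1105 are expected by the threshold alone. The 4 day 14 arrays lay above all 4 day 3 arrays for 462 genes (2.09%) and below them for 495 (2.24%). Most differences were small. The median absolute change was 0.10 with a median SE of 0.12, and 13 genes differed by more than 1 on the log2 scale.

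Pir stood at 7.35, 7.47, 7.57 and 7.54 in the 4 day 3 phenformin arrays and at 7.96, 8.10, 8.19 and 8.18 in the 4 day 14 arrays. Its groups did not overlap, and every day 14 array exceeded every day 3 array. The rise was 1.54-fold (log2 change 0.63, SE 0.0806, 95% interval 0.46 to 0.80, adjusted p = 0.0158 in limma). In the controls the mean was 7.77 at day 3 and 8.05 at day 14, a difference of 0.28 (SE 0.0806). The control groups did not overlap either. The day 3 phenformin arrays were the lowest of the 4 groups, and both day 14 groups stood close together. The excess over the controls was 0.34 (SE 0.114) and did not pass the threshold (adjusted p = 0.549). The adjusted p of Pir in the limma fit was 0.102 with array medians aligned, 0.158 with only the compared arrays, and between 0.0508 and 0.12 without phenformin day 3 replicate 1, 2 or 4 or day 14 replicate 2, 3 or 4. None of these 8 settings called Pir, while its change stayed between 0.58 and 0.68 in them.

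Pir is known as a target of NRF2, the transcription factor that induces antioxidant and detoxifying genes through the antioxidant response element. The promoters of Pir and of a pair of other NRF2 targets that stood among the genes of smallest p are shown. They let the presence or absence of the core in these windows be read beside the values. They are RefSeq sequences of the GRCr8 assembly, from 250 bases before to 50 bases after the annotated start, written 5′ to 3′ along the gene. Capitals mark matches to the core TGACNNNGC on either strand. For Txnrd1, the second of its entries in the table is shown.
Pir promoter, chrX:33851000-33851299, minus strand: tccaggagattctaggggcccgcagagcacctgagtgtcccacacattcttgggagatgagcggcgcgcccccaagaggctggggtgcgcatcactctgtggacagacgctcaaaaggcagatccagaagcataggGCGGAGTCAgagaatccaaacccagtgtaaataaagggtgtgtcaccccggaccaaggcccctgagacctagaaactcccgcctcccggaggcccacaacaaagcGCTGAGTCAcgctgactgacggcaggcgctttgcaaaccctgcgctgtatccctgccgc
Txnrd1 promoter, chr7:22755855-22756154, minus strand: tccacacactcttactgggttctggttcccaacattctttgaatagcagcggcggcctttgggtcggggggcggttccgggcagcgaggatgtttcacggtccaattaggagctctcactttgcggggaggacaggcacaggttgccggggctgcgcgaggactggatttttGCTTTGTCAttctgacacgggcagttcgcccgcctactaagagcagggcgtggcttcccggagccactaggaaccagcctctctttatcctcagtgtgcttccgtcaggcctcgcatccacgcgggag
Nqo1 promoter, chr19:52220218-52220517, minus strand: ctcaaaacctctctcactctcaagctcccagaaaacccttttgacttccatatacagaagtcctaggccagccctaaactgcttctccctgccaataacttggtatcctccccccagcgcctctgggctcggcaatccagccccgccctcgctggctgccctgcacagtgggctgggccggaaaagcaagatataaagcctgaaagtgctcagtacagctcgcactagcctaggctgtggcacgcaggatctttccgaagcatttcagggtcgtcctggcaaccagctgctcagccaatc
The Pir window held 2 matches, at 114 and 9 bases before the start, and the Txnrd1 window held 1, at 78 bases before it. The other Txnrd1 entry and the Nqo1 window held none. Bases outside these windows were not searched. The same core occurred in 12.1% of the 33469 promoters of the table, so a match is a description of the letters in these windows.

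Txnrd1, cytosolic thioredoxin reductase, stood at 9.30, 9.52, 9.32 and 9.37 at day 3 and at 9.57, 9.88, 9.87 and 9.77 at day 14 of phenformin. Its 4 day 14 arrays were above all 4 day 3 arrays, by 0.39 (SE 0.0857, adjusted p = 0.327 in limma). The control difference was 0.10. Nqo1, a quinone reductase, stood at 6.76, 6.67, 6.64 and 6.87 at day 3 and at 6.95, 7.09, 7.24 and 7.07 at day 14, a difference of 0.35 (SE 0.0776, adjusted p = 0.334). The controls differed by nearly as much, 0.34, and the difference between the drug and the controls was 0.01 (SE 0.11). Txnrd3, a further thioredoxin reductase, was 0.39 higher at day 14 (SE 0.0788) with the arrays apart.

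Of the 25 measured NRF2 and redox genes, 20 lay above 0, with a median of 0.12 beside -0.01 over all genes. At an unadjusted p under 0.05, 6 were higher at day 14 and 0 were lower, against the background of 3.72% and 4.07%. The 6 were Gclc, which makes the limiting step of glutathione synthesis, Txnrd1, Nqo1, Prdx1, Gsr and Cat. Hmox1, the haem oxygenase that this factor induces under acute stress, differed by 0.03 (SE 0.184). Gstm4, a glutathione transferase outside this list, was 0.43 lower at day 14 under phenformin. It was 0.88 higher in the controls, where its group mean went from 9.20 to 10.08. The whole list had a control median of 0.11, close to that under phenformin. In the controls 24 of 25 lay above 0, and 6 were higher at an unadjusted p under 0.05, where 5.07% of all genes were. The difference between drug and control changes was above 0 for 2 and below 0 for 5 at that p, beside 3.12% and 3.88% of all genes.

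**Figure D1:**
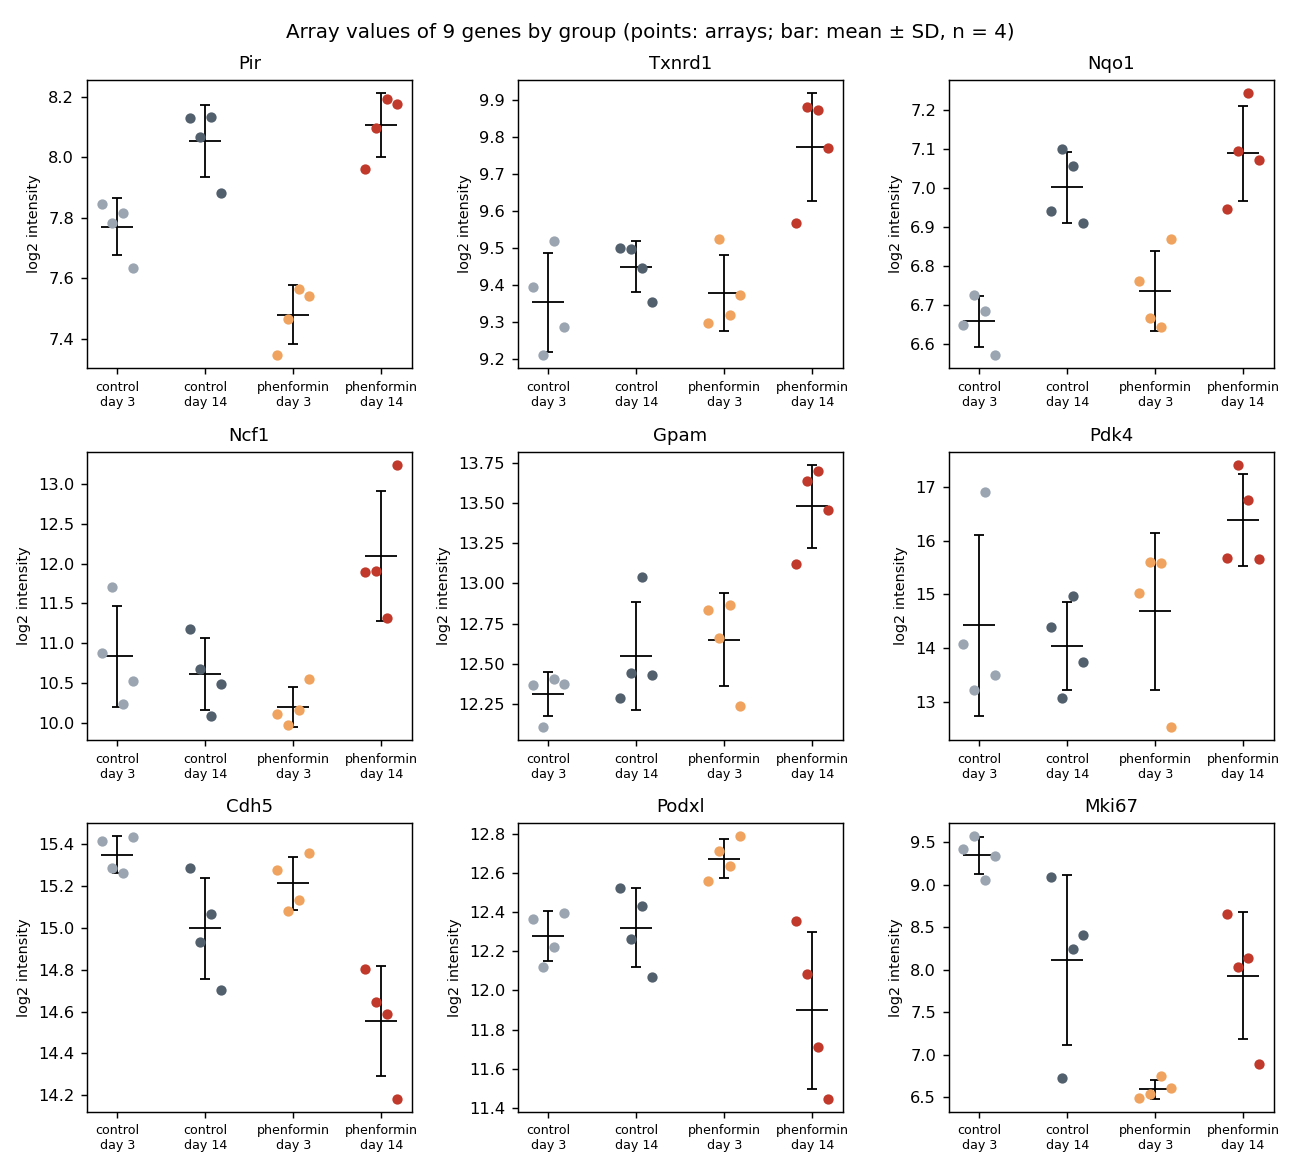
Levels of 9 genes in each of the 16 arrays (y axis: log2 of the deposited intensity; x axis: the 4 groups). Points are arrays, with replicates 1 to 4 from left to right, and the black mark with its bar is the mean ± SD of 4 arrays. The day 3 phenformin arrays have the lowest group mean for Pir and Mki67, and phenformin day 14 replicate 4 is the highest array for Ncf1 and the lowest for Cdh5 and Podxl.

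The other genes of smallest p on the higher side did not pass the threshold and are given as values. They were picked by p in the same arrays, so groups lying apart are no further support. The largest difference among all 22093 genes was that of Ncf1, which encodes the p47phox organiser of the phagocyte NADPH oxidase. It stood at 10.11, 9.97, 10.16 and 10.55 at day 3 and at 11.89, 11.91, 11.32 and 13.24 at day 14. The groups did not overlap, and replicate 4 was the highest of the day 14 arrays. The difference was 1.89 (SE 0.354, 95% interval 1.14 to 2.64, adjusted p = 0.236 in limma) and 1.51 without that array. In the controls Ncf1 went from 10.84 to 10.61, and the drug and control differences were 2.12 apart (SE 0.501, adjusted p = 0.365). Among markers of the cells best known for this oxidase, 1 of 10 neutrophil and mast cell genes lay above 0 (median -0.17) and 14 of 16 macrophage genes did (median 0.07). The first median was -0.07 without day 3 replicate 2 and -0.11 without day 3 replicate 3, and the second ran from 0.03 to 0.13 as single arrays were left out. Their part in the Ncf1 difference was not tested.

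Ntn4, the basement membrane protein netrin-4, was 0.70 higher at day 14 (SE 0.115, adjusted p = 0.108 in limma), with day 3 arrays at 9.77, 10.30, 9.97 and 10.12 and day 14 arrays at 10.53, 10.74, 10.88 and 10.80. The day 14 arrays were all above the day 3 arrays, and in the controls Ntn4 was 0.41 higher, also with the arrays apart. Fdft1, squalene synthase, stood at 11.78, 11.31, 11.43 and 11.49 at day 3 and at 12.06, 12.04, 12.44 and 12.03 at day 14, a difference of 0.64 (SE 0.114, adjusted p = 0.203). Its control difference was 0.35, also with the arrays apart. Of 18 cholesterol synthesis genes, 9 lay above 0 with a median of 0.00, and 1, Fdft1 itself, had an unadjusted p under 0.05. Ppm1j, a protein phosphatase, was 0.40 higher (SE 0.0852) with a control difference of -0.01. Gabarapl1, which acts in autophagy, was 0.50 higher (SE 0.114), and its control difference of 0.71 was larger.

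Gpam, the mitochondrial acyltransferase that starts glycerolipid synthesis, stood at 12.83, 12.66, 12.86 and 12.24 at day 3 and at 13.12, 13.64, 13.70 and 13.46 at day 14, a difference of 0.83 (SE 0.168, adjusted p = 0.27 in limma) against 0.24 in the controls. Each day 14 array exceeded each day 3 array. Mlycd, which degrades the malonyl-CoA that restrains fatty acid entry into mitochondria, stood at 9.30, 9.01, 9.30 and 8.90 at day 3 and at 9.41, 9.66, 9.66 and 9.60 at day 14, a difference of 0.46 (SE 0.1) against 0.24 in the controls. Pank1, the pantothenate kinase of coenzyme A synthesis, was 0.61 higher (SE 0.124), also with the arrays apart.

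Cpt1a, a carnitine palmitoyltransferase of the outer mitochondrial membrane, stood at 10.12, 9.95, 10.35 and 9.59 at day 3 and at 10.31, 10.76, 10.35 and 11.03 at day 14. The groups met at 10.31 to 10.35, and the difference was 0.61 (SE 0.169, adjusted p = 0.414 in limma), with 0.15 in the controls. Plin5, a lipid droplet protein of oxidative muscle, was 0.58 higher (SE 0.163), and Slc25a20, the carnitine-acylcarnitine carrier, 0.38 (SE 0.133). Pdk4, the kinase that shuts down pyruvate dehydrogenase and is a classic PPAR alpha target, stood at 15.02, 15.60, 15.58 and 12.53 at day 3 and at 15.68, 17.42, 16.77 and 15.67 at day 14. Its difference of 1.70 (SE 0.771) became 0.98 without day 3 replicate 4, the low array of that group. Ucp3 was 0.76 higher (SE 0.314) and Angptl4 0.64 (SE 0.358), with the lowest value of each again in day 3 replicate 4. Without that array they were 0.48 and 0.41 higher, and without day 14 replicate 2, the highest array of each, 0.49 and 0.18.

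Of 27 measured PPAR alpha targets, 22 lay above 0 with a median of 0.12, and at an unadjusted p under 0.05, 8 were higher and 1, Hacd3, was lower, beside 3.72% and 4.07% of all genes. Without day 3 replicate 4 the median was 0.04, and 4 genes were higher; without day 14 replicate 3, 5 were. Of 28 genes of fatty acid oxidation, 25 lay above 0 with a median of 0.11 and 5 were higher at that p, beside the same 3.72%. That count was 1 without day 3 replicate 4, 2 without day 14 replicate 3, 3 without day 14 replicate 2 or 4, and 2 with quantiles normalised again. In the controls 25 of the 28 also lay above 0, with a median of 0.11. The mean of the PPAR alpha list, each gene centred on all 16 arrays, was 0.05 ± 0.23 (SD, n = 4) at day 3 and 0.29 ± 0.12 at day 14 under phenformin, against -0.19 ± 0.13 and -0.15 ± 0.11 in the controls. The day 3 phenformin arrays spanned -0.28 to 0.22 and overlapped the day 14 arrays and the controls.

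Elovl5, which elongates polyunsaturated fatty acids, was 0.49 lower at day 14 under phenformin (SE 0.118) and 0.39 lower in the controls, while 4 of 16 fatty acid synthesis genes lay above 0 with a median of -0.11, which ran from -0.17 to -0.01 as single arrays were left out. Of 25 genes of glucose uptake and glycolysis, 17 lay above 0 with a median of 0.03 and 2 were higher at an unadjusted p under 0.05, beside 3.72% of all genes: Pfkfb2 (0.49, SE 0.197), which makes the activator of phosphofructokinase, and Pgk1 (0.19, SE 0.0832). Of 34 complex I subunit genes, the subunits of the enzyme that phenformin inhibits, 23 lay above 0 with a median of 0.05 and 4 were higher at that p, 7 without day 14 replicate 1, 2 without day 14 replicate 3 and 1 with quantiles normalised again. In the controls 33 of 34 lay above 0 with a median of 0.15 and 11 were higher, where 5.07% of all genes were. Ndufb6, a complex I subunit, was 0.31 higher under phenformin (SE 0.114) and 0.16 higher in the controls.

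The endothelial list had the lowest median change of the 42 lists, -0.33, with the red blood cell list next at -0.32. Cdh5, the cadherin of endothelial junctions, stood at 15.27, 15.08, 15.13 and 15.36 at day 3 and at 14.80, 14.64, 14.59 and 14.18 at day 14. Every day 14 array was below every day 3 array. The difference was -0.66 (SE 0.127, 95% interval -0.93 to -0.39, adjusted p = 0.27 in limma), and it was -0.53 without day 14 replicate 4, the lowest array. In the controls Cdh5 was 0.35 lower at day 14, and the drug and control differences were 0.31 apart (SE 0.179, adjusted p = 0.772).

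Of 12 measured endothelial markers, 11 lay below 0 with a median of -0.33, and 7 were lower at an unadjusted p under 0.05 against the background of 4.07%. Tie1 and Tek, the receptors of the angiopoietin system, were lower by 0.63 and 0.47, and Pecam1, Eng, Emcn and Robo4 were the other 4 after Cdh5. Vwf and Cldn5 differed by -0.01 and 0.00. Without day 14 replicate 4 the median was -0.22 and 3 were lower, and with array medians aligned it was -0.28 and 3 were lower. With medians aligned, fewer than 4.07% of all genes were lower. The control median was -0.15. At an unadjusted p under 0.05, 2 of the 12 differed between the drug and control changes, both more negative under phenformin. Of all genes, 3.88% had such a difference below 0.

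Other genes of smallest p on the lower side did not pass the threshold. Podxl, the sialomucin podocalyxin of podocytes and vessel walls, stood at 12.56, 12.71, 12.64 and 12.79 at day 3 and at 12.36, 12.08, 11.71 and 11.45 at day 14, a difference of -0.77 (SE 0.152, adjusted p = 0.27 in limma) against 0.05 in the controls. Without day 14 replicate 1 it was -0.93 (adjusted p = 0.0389) and passed. Ttyh3, a membrane protein of the tweety family, stood at 8.62, 8.64, 8.76 and 8.90 at day 3 and at 8.37, 8.28, 8.30 and 8.07 at day 14, a difference of -0.48 (SE 0.0784, adjusted p = 0.108). Both genes had day 14 arrays below all day 3 arrays.

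Pspn, which encodes the neurotrophic ligand persephin, stood at 5.69, 5.72, 5.62 and 5.59 at day 3 and at 5.08, 4.89, 5.21 and 4.88 at day 14, near the lower end of the array's range, and was 0.64 lower (SE 0.119). Tmem88, a membrane regulator of Wnt signalling, was 0.59 lower (SE 0.12), Nherf2, a scaffold of membrane transporters, 0.60 (SE 0.134), and Adgre5, the leukocyte adhesion receptor CD97, 0.55 (SE 0.114). Cyyr1 (-0.46), Clec2d2l3 (-0.43), Bean1 (-0.43), Ntaq1 (-0.39) and Or10ag59b (-0.66) completed the 12 lower genes. Or10ag59b, with phenformin means of 4.73 at day 3 and 4.07 at day 14, was also near the lower end of the array's range. All 12 had their day 14 arrays below all day 3 arrays. They were picked by p in these same arrays, so this is no further support.

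Of 11 smooth muscle and pericyte genes, 9 lay below 0 with a median of -0.17 and 0 had an unadjusted p under 0.05 in limma. Day 14 replicate 4 was the lowest of its group for 9 of the 11, and without it the median was -0.04. It was -0.07 without day 14 replicate 3, -0.09 and -0.11 without day 3 replicates 4 and 1, and -0.26 without day 14 replicate 1. Rgs5, a pericyte marker, stood at 16.59, 16.49, 16.45 and 16.69 at day 3 and at 16.58, 16.53, 16.38 and 15.78 at day 14. Its groups overlapped, with only replicate 4 below the day 3 range, and the difference of -0.24 (SE 0.148) was -0.06 without it. Of 16 fibroblast genes, 9 lay above 0 with a median of 0.01, which ran from -0.12 to 0.12 as single arrays were left out, and the control median was -0.33. The 7 cardiomyocyte markers all lay between -0.01 and 0.05, with a median of 0.00.

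**Figure D2:**
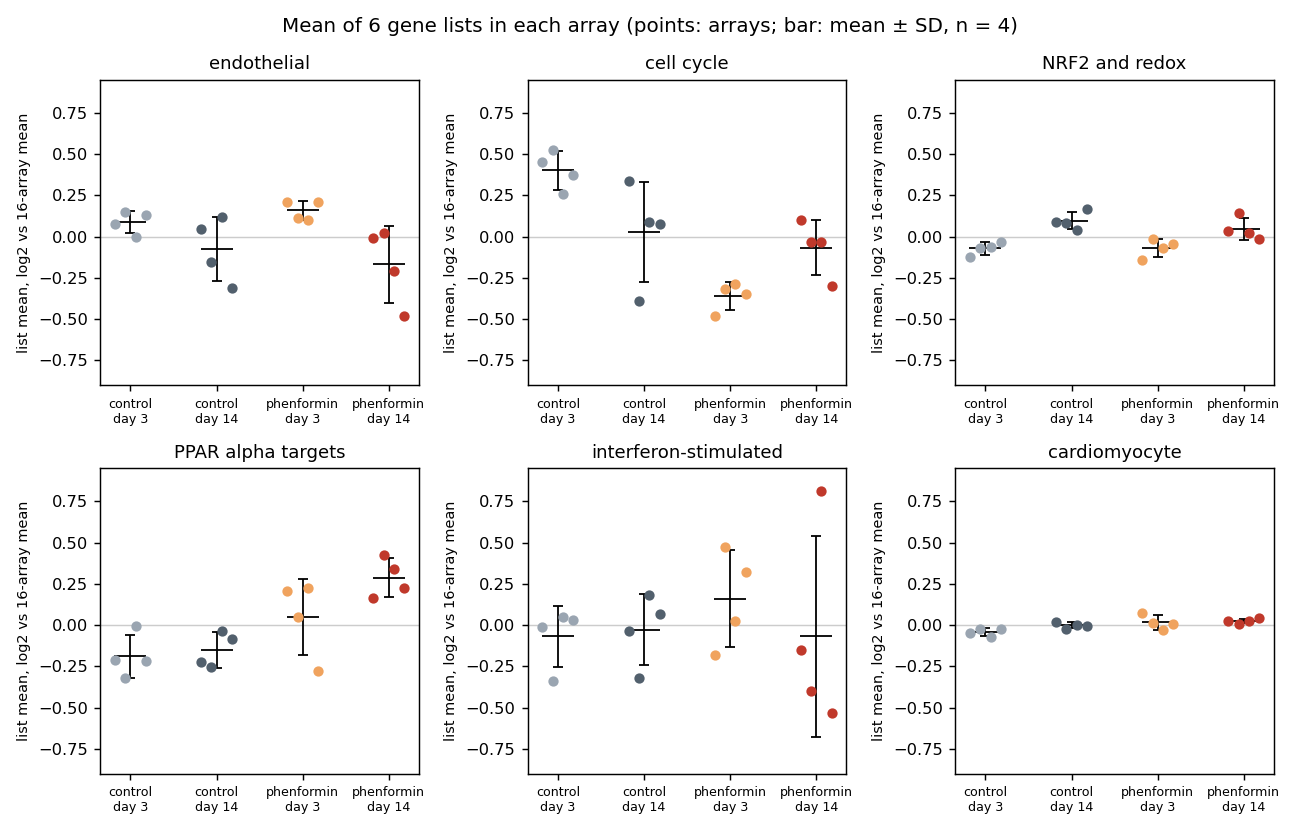
Mean level of 6 gene lists in each array (y axis: mean over the list of each gene's log2 level minus its mean over all 16 arrays; x axis: the 4 groups). Points are arrays, with replicates 1 to 4 from left to right, and the black mark with its bar is the mean ± SD of 4 arrays. The endothelial list is below its day 3 phenformin values in all 4 day 14 phenformin arrays, the interferon list spreads widely at day 14 through replicate 3, and the cardiomyocyte list stays between -0.07 and 0.07.

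The cell cycle list had the highest median change of the 42 lists under phenformin, 0.27, and in the controls its median was -0.31. Mki67, the antigen Ki-67 of dividing cells, stood at 6.49, 6.54, 6.75 and 6.61 at day 3 and at 8.66, 8.03, 8.14 and 6.89 at day 14. The 4 day 14 arrays were all above the day 3 arrays, replicate 4 only narrowly. The difference was 1.33 (SE 0.389, 95% interval 0.51 to 2.16, adjusted p = 0.414 in limma). The controls stood at 9.41, 9.57, 9.05 and 9.34 at day 3 and at 9.10, 6.73, 8.24 and 8.41 at day 14, a difference of -1.22 (SE 0.389). The drug and control differences were 2.56 apart (SE 0.549, adjusted p = 0.353).

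Top2a, the DNA topoisomerase of dividing cells, stood at 5.55, 5.93, 6.02 and 5.81 at day 3 and at 7.04, 6.75, 6.74 and 6.13 at day 14 of phenformin, a difference of 0.84 (SE 0.27), with -0.83 in the controls. Again each day 14 array was above the day 3 range. The promoters of Mki67 and Top2a are shown because both genes differed in opposite directions in the drug and control arrays. Capitals mark TTTGAA on either strand, the core of the cell cycle homology region through which such promoters are repressed outside division.
Mki67 promoter, chr1:199952544-199952843, minus strand: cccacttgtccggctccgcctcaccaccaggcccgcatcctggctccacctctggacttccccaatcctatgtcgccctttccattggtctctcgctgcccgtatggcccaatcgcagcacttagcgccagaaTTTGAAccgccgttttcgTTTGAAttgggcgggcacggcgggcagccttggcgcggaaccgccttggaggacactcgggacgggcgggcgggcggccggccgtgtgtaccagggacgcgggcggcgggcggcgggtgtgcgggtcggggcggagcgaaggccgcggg
Top2a promoter, chr10:84473044-84473343, minus strand: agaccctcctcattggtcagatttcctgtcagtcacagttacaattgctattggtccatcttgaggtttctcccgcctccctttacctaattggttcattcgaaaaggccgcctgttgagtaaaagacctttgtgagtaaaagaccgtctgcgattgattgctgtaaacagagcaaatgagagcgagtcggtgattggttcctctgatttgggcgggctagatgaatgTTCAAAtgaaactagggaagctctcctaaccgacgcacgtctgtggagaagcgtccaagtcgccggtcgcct
The Mki67 window held 2 matches, at 117 and 99 bases before the start, and the Top2a window 1, at 22 bases before it and on the minus strand. The core occurred in 18.3% of the promoters in the table.

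Of 41 cell cycle genes, 39 lay above 0 under phenformin with a median of 0.27. At an unadjusted p under 0.05 in limma, 14 were higher and 0 lower, beside 3.72% and 4.07% of all genes. Without day 14 replicate 1, 8 were higher. In the controls 40 lay below 0 with a median of -0.31, and 25 were lower at that p, where 4.39% of all genes were lower and 5.07% higher. The difference between drug and control changes was above 0 for 40 of 41, with a median of 0.54 beside -0.02 over all genes, and 28 were above 0 at an unadjusted p under 0.05 where 3.12% of all genes were. Leaving out any 1 of the 16 arrays left between 24 and 29 such genes and a median between 0.40 and 0.65. The list mean was -0.36 ± 0.08 (SD, n = 4) at day 3 and -0.07 ± 0.17 at day 14 under phenformin, against 0.40 ± 0.12 and 0.03 ± 0.30 in the controls. The day 3 groups lay far apart and the day 14 groups overlapped. The control arrays ranged from -0.39 to 0.33 at day 14, with replicate 2 the lowest.

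Bub1, a kinase of the spindle checkpoint, was 0.45 higher under phenformin (SE 0.135) and 0.58 lower in the controls, and the 2 differences were 1.03 apart (SE 0.191, adjusted p = 0.338 in limma). Over the whole list the changes ran from -0.17 to 1.33, and none passed the threshold. Of 11 core histone genes, 10 lay above 0 with a median of 0.15, against -0.09 in the controls.

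Across all genes, 0 passed the threshold in the limma test of the difference between drug and control changes (0%), with a lowest adjusted p of 0.338. At an unadjusted p under 0.05, 689 genes had a difference above 0 (3.12%) and 857 below it (3.88%). The genes of smallest p above 0 were Diaph3 (0.99), a formin that organises actin, Bub1, Hmgb2l1 (1.04) and Lrat (1.11), the acyltransferase that stores vitamin A. Those below 0 were Ntaq1 (-0.61), an amidase that acts on amino-terminal glutamine, Sirt2 (-0.51), Clic5 (-0.44) and Pspn (-0.85). Sirt2, a cytosolic NAD-dependent deacetylase, stood at 11.85, 11.82, 11.80 and 11.81 at day 3 and at 11.57, 11.52, 11.56 and 11.57 at day 14 of phenformin. It was 0.26 lower under the drug and 0.25 higher in the controls (SE of each 0.0685).

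The controls alone had 0 genes past the threshold in limma between the days (0%), with a lowest adjusted p of 0.0659, while 1121 genes were higher and 970 lower at an unadjusted p under 0.05. Over all genes the correlation of the drug and control changes was 0.03, and 51.5% of genes had the same sign, as a description across genes that are not independent. The comparisons share no array, but each gene's spread was estimated over all arrays and served both tests. The tests are therefore not independent, and the overlap was not compared with an expected count. Of the 1722 genes at an unadjusted p under 0.05 under phenformin, 16.9% were also so in the controls. They were 13.9% of the control genes at that p. In the controls 5.07% of all genes were higher and 4.39% lower at that p. Under phenformin 3.72% of all genes were higher and 4.07% lower. Of the 291 genes in the overlap, 204 had the same sign.

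**Figure D3:**
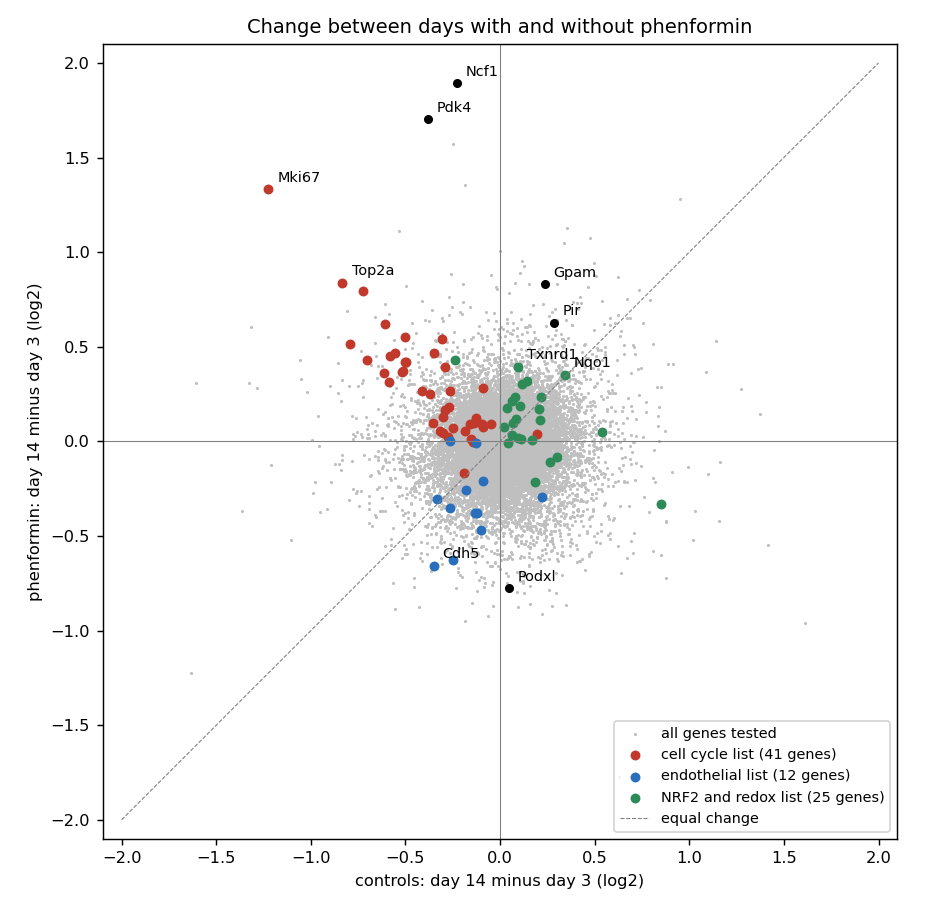
Change of each of 22093 genes between the days in controls (x axis, log2) and under phenformin (y axis, log2), with the cell cycle, endothelial and NRF2 lists in colour. Cell cycle genes lie in the upper left, with Mki67 at -1.22 and 1.33, and Ncf1 has the largest change under phenformin, 1.89.

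Collagen genes differed more between the days in the controls than under phenformin by their medians. In the controls 37 of 40 genes of collagens and matrix assembly lay below 0 with a median of -0.38. At an unadjusted p under 0.05, 20 were lower, where 4.39% of all genes were. Under phenformin 23 lay below 0 with a median of -0.07, and 5 were lower, beside 4.07% of all genes. That count was 2 with array medians aligned or without day 14 replicate 3 or 4, and 3 without day 3 replicate 2 or 4. With medians aligned, fewer than 4.07% of all genes were lower. The difference was above 0 for 32 of 40, and 11 were above 0 at that p, where 3.12% of all genes were. That count was 2 without phenformin day 14 replicate 2, 3 without control day 14 replicate 2, 4 without control day 3 replicate 2 or phenformin day 3 replicate 1 or 2, 5 without phenformin day 14 replicate 1, 6 without control day 3 replicate 1 or control day 14 replicate 3, and 7 with quantiles normalised again. Col3a1, a fibrillar collagen, stood at 13.16, 13.05, 13.50 and 13.59 at day 3 and at 13.44, 13.27, 12.94 and 12.79 at day 14 of phenformin, and its control mean went from 14.23 to 13.26. The phenformin groups overlapped (-0.21, SE 0.225, and -0.33 to -0.11 as single arrays were left out). Sparc, a collagen-binding matrix protein that endothelium also makes, was 0.40 lower (SE 0.104) under phenformin and 0.25 lower in the controls. Col4a2, a chain of basement membrane collagen, was 0.45 lower (SE 0.152) and 0.39 lower in the controls.

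Immediate early genes are switched on quickly by stimulation. Of 28, 23 lay below 0 in the controls (median -0.35) and 21 above 0 under phenformin (median 0.12), with 0 at an unadjusted p under 0.05 in limma under the drug. The drug median was 0.02 without day 14 replicate 2 and 0.19 without day 14 replicate 4. Fos stood at 5.18, 5.47, 5.40 and 4.94 at day 3 and at 5.71, 5.80, 5.46 and 5.24 at day 14 of phenformin, and its control mean went from 7.37 to 5.77. The phenformin groups of Fos overlapped.

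Some genes whose phenformin means were far from the control means at both days had overlapping phenformin groups. Nr1d1, the clock repressor REV-ERB alpha, stood at 10.67, 9.03, 9.98 and 10.31 at day 3 and at 10.01, 10.38, 10.24 and 10.07 at day 14, beside control means of 6.90 and 7.74. The day 14 arrays fell within the day 3 range, and the difference was 0.18 (95% interval -0.54 to 0.90). Txnip, a glucose-responsive inhibitor of thioredoxin, stood at 15.82, 16.13, 15.57 and 15.27 at day 3 and at 16.30, 16.06, 15.90 and 15.00 at day 14, beside control means of 13.72 and 14.00. The groups overlapped, and the 95% interval of the difference was -0.59 to 0.83. Per1 (-0.10), Per2 (-0.11), Cry1 (-0.03) and Bmal1 (-0.12), which encode the other arms of the clock, also had overlapping groups.

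Bhlhe41, a clock repressor, stood at 8.89, 8.47, 8.13 and 8.74 at day 3 and at 8.59, 9.45, 9.40 and 9.31 at day 14, a difference of 0.63 (SE 0.174) with overlapping groups because of day 14 replicate 1. Dbp, a clock-driven transcription factor, was 0.45 higher (SE 0.206), and 0.27 without day 3 replicate 2. Over the 20 clock genes the median was 0.02, and 2 were higher at an unadjusted p under 0.05, beside 3.72% of all genes.

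Nppa, which encodes atrial natriuretic peptide, stood at 16.24, 16.55, 15.87 and 17.11 at day 3 and at 17.12, 17.25, 15.54 and 16.23 at day 14, and Myh7, the slow myosin of the fetal gene programme, at 19.37, 19.45, 19.28 and 19.52 and at 19.57, 19.42, 19.44 and 19.30. Both overlapped, with intervals of -0.80 to 0.98 and -0.38 to 0.43. Gdf15, a secreted marker of mitochondrial stress, differed by -0.03 (95% interval -0.30 to 0.24) and Fgf21 by 0.05 (-0.28 to 0.36), both at low levels near 5. Of 37 genes of the integrated stress response 17 lay above 0 with a median of -0.01, and 3 were higher and 2 lower at an unadjusted p under 0.05, beside 3.72% and 4.07% of all genes. Of 19 endoplasmic reticulum chaperones, 16 lay below 0 with a median of -0.12, with 0 at that p in limma. That median was -0.05 without day 3 replicate 2, and -0.07 without day 14 replicate 3 or with array medians aligned. In the controls 14 of the 19 lay above 0, with a median of 0.05. The difference between drug and control changes was above 0 for 3 of 19. At an unadjusted p under 0.05, 4 had a difference below 0, where 3.88% of all genes did, and that count ran from 1 to 5 over the alternatives.

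Mt1, a metal-binding protein induced by glucocorticoids and zinc, stood at 8.18, 6.96, 6.88 and 7.90 at day 3 and at 8.10, 8.63, 8.88 and 8.82 at day 14, a difference of 1.13 (SE 0.331, adjusted p = 0.417 in limma) with overlapping groups. Its second probe set gave 0.26, and the mean of both 0.70. Fkbp5, a glucocorticoid-induced chaperone partner, was 0.43 higher (SE 0.121) with the arrays apart and 0.33 higher in the controls. Of 20 glucocorticoid targets, 15 lay above 0 with a median of 0.17, and 2 were higher at an unadjusted p under 0.05, beside 3.72% of all genes. The median was 0.06 without day 14 replicate 3 and 0.08 without day 3 replicate 4. The count was 4 with array medians aligned or without control day 3 replicate 3. With medians aligned, more than 3.72% of all genes were higher. Insr, the insulin receptor and a FoxO target, stood at 10.88, 10.86, 10.99 and 10.91 at day 3 and at 11.11, 11.18, 11.23 and 11.17 at day 14. It was 0.26 higher (SE 0.0697) with the arrays apart, and 0.26 higher in the controls too. Of 15 FoxO and atrophy genes, 12 lay above 0 under phenformin (median 0.13, and 0.08 without day 3 replicate 2) and 13 in the controls (median 0.25).

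Rpl13, a protein of the large ribosomal subunit, stood at 12.66, 13.06, 13.24 and 13.01 at day 3 and at 12.28, 12.30, 12.53 and 12.37 at day 14 and was 0.62 lower (SE 0.162), with the arrays apart. Its other 3 probe sets gave -0.55, -0.33 and -0.37, the same direction. The copies of ribosomal protein genes are near-identical, so a probe set may read more than 1 of them. Over 45 cytosolic ribosomal protein genes the median was -0.03, against 0.11 in the controls. At an unadjusted p under 0.05, 2 were lower, a share near the 4.07% of all genes. The day 14 arrays lay below all day 3 arrays for 6 of the 45, where 2.24% of all genes did, and above them for 0. The difference between drug and control changes was above 0 for 3 of the 45. At that p 4 had a difference below 0, where 3.88% of all genes did, and that count ran from 2 to 9 over the alternatives. Tcap, the titin cap of the Z-disc, was 0.74 higher (SE 0.233) under phenformin and 0.54 higher in the controls, 0.20 apart (SE 0.329). The median over 20 sarcomere genes was 0.02.

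Interferon-stimulated genes varied more among the day 14 arrays than between the days. Rsad2, the antiviral enzyme viperin, stood at 9.83, 9.46, 9.45 and 9.22 at day 3 and at 9.08, 7.84, 9.54 and 8.32 at day 14. Replicate 3 was within the day 3 range and the other day 14 arrays were below it. Of 26 genes of the list, 22 lay below 0 with a median of -0.18. At an unadjusted p under 0.05, 2 were lower, beside 4.07% of all genes. Day 14 replicate 3 was the highest of its group for 25 of the 26 genes, so leaving it out lowers the changes by construction. Without it all 26 lay below 0 with a median of -0.42, and 14 were lower. The share of all genes in that setting is not given here, so the 14 is no test of a fall. The cause of the high array was not tested.

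All 11 measured red blood cell genes lay below 0, with a median of -0.32, and 1, Hba-a1 (-0.32, SE 0.14), had an unadjusted p under 0.05, where 4.07% of all genes were lower. Without day 14 replicate 2 the list median was -0.14, Hba-a1 was at -0.14 and 0 genes were lower at that p in limma. Leaving out other arrays gave 0 to 2. Hba-a1, the alpha globin, stood at 19.41, 19.18, 19.23 and 19.23 at day 3 and at 19.22, 18.39, 19.11 and 19.03 at day 14, with replicate 2 the lowest. All 8 platelet genes lay below 0 under phenformin (median -0.29, and -0.18 without phenformin day 3 replicate 4) and above 0 in the controls (median 0.32). At an unadjusted p under 0.05, 3 had a difference below 0, where 3.88% of all genes did. That count was 5 without control day 3 replicate 2 or phenformin day 14 replicate 1. Tubb1, the tubulin of megakaryocytes and platelets, stood at 4.76, 5.20, 5.03 and 5.22 at day 3 and at 5.06, 4.20, 4.35 and 4.70 at day 14, at the lower end of the array's range. Blood held in the tissue at sampling was not measured, and its part in these lists was not tested.

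**Figure D4:**
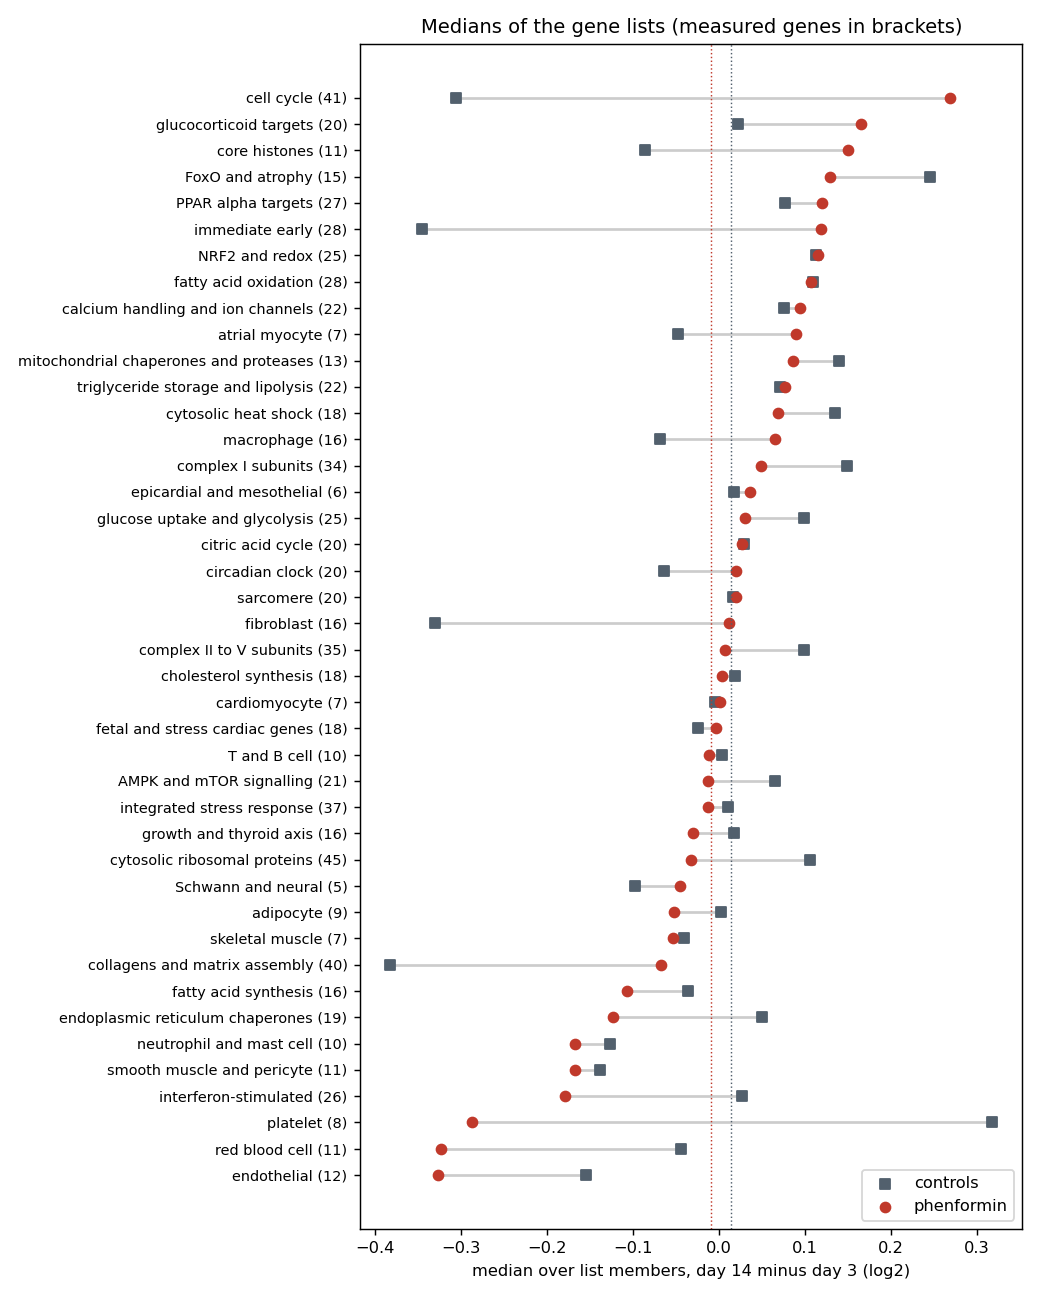
Median change between the days over each of 42 gene lists (x axis, log2), with red circles for phenformin, grey squares for controls and dotted lines at the medians over all genes (-0.01 and 0.01). Cell cycle (0.27 against -0.31), immediate early (0.12 against -0.35) and platelet genes (-0.29 against 0.32) lie farthest apart, and NRF2 and fatty acid oxidation genes nearly coincide.

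Among the 44891 probe sets that the annotation leaves unnamed here, 0 passed the threshold in limma for phenformin day 14 against day 3, with a lowest adjusted p of 0.482, and 2670 (5.95%) had an unadjusted p under 0.05.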

How the data were processed

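Total RNA of the left ventricle apex was labelled from 300 ng for an Affymetrix whole-transcript array (labels' protocols). Deposited values are linear intensities made by the authors with RMA, which corrects background, normalises quantiles and summarises probe sets, per the submitters' processing notes (no version given). No source used here says how they came to be linear; array maxima lay between 999968 and 999973. Their log2 was taken without further normalisation.

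Of 68842 probe sets, 23446 had 1 gene symbol, 505 several and 44891 were unnamed here. The brightest stood for a gene, which gave 22093 genes, with no filter on dim ones. limma 3.58.1 in R 4.3.3 (with version 1.17.8 of data.table) fitted 1 mean per group over 16 arrays with a mean-variance trend. Tests were two-sided with Benjamini-Hochberg adjusted p under 0.05 over all genes, and the fit was tested on simulated data.

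Named genes were 12 on each side (those past the threshold with arrays apart, then by smallest p), 4 on each side of the difference, 2 per list by smallest p and a fixed set, 134 in all; Tie1, Pecam1 and other list members were named after their values were seen. There were 28 pathway and 14 cell type lists. Members and lists were chosen with earlier results of these data known. Alternatives changed the filter, normalisation, trend, weights, arrays, probe sets and scale; dropping genes of mean log2 above 16 and using rank scores were chosen after seeing the data, as was leaving out arrays for list counts.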

Additional observations from a re-analysis of the deposited data

Results flagged for a closer look

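In 10 of 268 groups of 4 phenformin arrays tested (3.73%), 1 array lay far from the other 3 by Dixon's criterion; chance flags about 1 group in 20. Levels are log2 intensities. Day 3 replicate 1 was low for Tnni1 (5.32 beside 5.80 to 5.87), Cidec (3.41 beside 3.64 to 3.66) and Bmal1 (9.77 beside 10.02 to 10.05). Day 3 replicate 2 was high for Hmox1 (6.92 beside 6.39 to 6.48), and day 3 replicate 4 was low for Slc4a1 (8.12 beside 8.74 to 8.86). Day 14 replicate 1 was low for Bhlhe41 (8.59 beside 9.31 to 9.45), and day 14 replicate 3 was high for Fdft1 (12.44 beside 12.03 to 12.06). Day 14 replicate 4 was low for Diaph3 (5.31 beside 5.58 to 5.61) and Wt1 (6.83 beside 7.04 to 7.07) and high for Pgk1 (15.16 beside 14.90 to 14.93).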

How the results depend on the processing

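The count for phenformin day 14 against day 3 was 1 and became 0 with array medians aligned, with only the compared arrays, with all probe sets tested and with the replicate number as a block (adjusted p of Pir 0.0695); the block changed no other call in that comparison, and same-numbered phenformin arrays of the 2 days had correlations of deviations of -0.13, 0.04, 0.04 and 0.06, so the numbers were not read as a pairing. Leaving out 1 array gave 0 to 3. The control count of 0 became 14 with genes under the 25th percentile dropped and 0 to 24 with 1 array left out, 24 without control day 14 replicate 1, 4 without phenformin day 14 replicate 2 and 2 without control day 3 replicate 2. The count of the difference was 0 to 1, with 1 called without control day 3 replicate 2. Without phenformin day 14 replicate 1 the 3 called genes included Podxl. With array medians aligned the median of all genes was 0.04, and 4.92% of genes were higher and 2.36% lower at an unadjusted p under 0.05. The cause of these shifts was not tested. Of the named genes' values under alternatives, 3282 kept their direction and their side of the threshold, 44 that were not called changed sign, 9 (all Pir) lost and 1 (Podxl) gained a call, and 0 called values reversed.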
